A study of Mus musculus with 12 samples.

Results

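Prostaglandin and thromboxane synthesis in mouse bone marrow was followed through 8 genes, Pla2g4a, Ptgs1, Ptgs2, Ptges, Ptges2, Ptges3, Tbxas1 and Hpgds, which were found by their symbols among 34745 genes. RNA of total marrow cells of the femur was sequenced from 12 male ICR mice, an outbred stock, of 18 to 22 g, with 3 mice in each of 4 groups, and their age was not given in the sources used here. The study asked how the Qi-Jing-Sheng-Bai granule (QJSB), a Chinese herbal formula, acts on leucopenia. Normal mice received saline and no cyclophosphamide. Mice of the model group received saline and cyclophosphamide, a cytotoxic alkylating drug, at 80 mg/kg/day on days 5 to 7. The QJSB group received the same cyclophosphamide with QJSB by mouth at 3 g/kg/day, and the leucogen group received it with leucogen, a leucocyte-raising drug, at 20 mg/kg/day. All groups were dosed for 1 week. No group received QJSB or leucogen without cyclophosphamide. The deposited columns are headed Blank, Model, Positive and Stilbene. Blank and Positive were read by meaning as normal and leucogen, and Stilbene was left for QJSB by elimination. The study's 3 gene lists matched the columns so read within 1% for 298 of 300, 300 of 300 and 300 of 300 genes, against at most 10 genes under any other pairing.

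Prostanoids are short-lived lipid signals made in successive steps. Cytosolic phospholipase A2 (Pla2g4a) frees arachidonic acid from membrane phospholipids, and the cyclooxygenases Ptgs1 and Ptgs2 turn it into the endoperoxide shared by all prostanoids. Ptgs1 is made steadily in many cells, whereas Ptgs2 is induced by inflammatory and growth signals. Terminal enzymes then set the product: Ptges, Ptges2 and Ptges3 are the prostaglandin E synthases, Tbxas1 makes the platelet activator thromboxane, and Hpgds, the haematopoietic prostaglandin D synthase, is known from mast cells and megakaryocytes. Ptges is the inducible enzyme bound to membranes, and Ptges3 is also a co-chaperone of heat shock proteins. In marrow, prostaglandin E acts on haematopoietic stem and progenitor cells.

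All 8 genes kept the coordinates of the GENCODE M21 annotation (GRCm38). Pla2g4a and Ptgs2 are neighbours on chromosome 1, on opposite strands, with 138740 bases and 1 listed gene between them. Pla2g4a spans chr1:149829618-149961290 in 20 exon blocks and Ptgs2 chr1:150100031-150108227 in 11. Ptges (chr2:30889471-30929863), Ptges2 (chr2:32395896-32405772) and Ptgs1 (chr2:36230426-36252272) lie on chromosome 2, and Ptges3 (chr10:128058954-128077272) on chromosome 10. Tbxas1 (chr6:38875404-39084585) and Hpgds (chr6:65117293-65144908) lie on chromosome 6. Whether reads were counted by strand is not given, and the genes on the opposite strand that overlap exons of Ptgs1 and Tbxas1 had 0 and 24 counts in all libraries together. The sequences before the start sites are shown for the 3 genes that were higher in all 3 cyclophosphamide groups than in normal mice, and for Ptgs2, which was nearly silent. Each run is the 250 bases before the RefSeq start (GRCm38.p6), read 5′ to 3′ on the strand of the gene, with the motif matches named below in capitals.
Pla2g4a, chr1:149961291-149961540, minus strand: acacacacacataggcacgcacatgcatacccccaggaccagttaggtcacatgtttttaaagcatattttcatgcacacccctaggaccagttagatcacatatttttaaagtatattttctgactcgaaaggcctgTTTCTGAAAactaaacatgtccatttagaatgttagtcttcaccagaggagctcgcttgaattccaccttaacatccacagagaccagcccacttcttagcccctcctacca
Ptgs1, chr2:36230176-36230425, plus strand: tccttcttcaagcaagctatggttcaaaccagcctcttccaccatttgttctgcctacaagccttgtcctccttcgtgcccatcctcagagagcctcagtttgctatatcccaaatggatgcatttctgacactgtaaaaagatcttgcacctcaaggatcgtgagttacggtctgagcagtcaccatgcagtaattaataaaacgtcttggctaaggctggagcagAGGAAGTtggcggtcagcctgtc
Ptges, chr2:30903298-30903547, minus strand: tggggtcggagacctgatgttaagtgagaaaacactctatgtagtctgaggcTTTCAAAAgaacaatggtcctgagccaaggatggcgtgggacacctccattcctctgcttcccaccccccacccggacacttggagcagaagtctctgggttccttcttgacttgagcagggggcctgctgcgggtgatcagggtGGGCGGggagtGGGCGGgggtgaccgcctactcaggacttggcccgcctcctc
Ptgs2, chr1:150099781-150100030, plus strand: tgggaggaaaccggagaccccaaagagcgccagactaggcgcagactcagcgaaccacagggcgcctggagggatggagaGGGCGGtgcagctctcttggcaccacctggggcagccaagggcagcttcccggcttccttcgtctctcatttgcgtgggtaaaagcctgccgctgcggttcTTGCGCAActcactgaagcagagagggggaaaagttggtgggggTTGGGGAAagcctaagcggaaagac

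The RefSeq start of Ptges lies 26566 bases inside the gene model of the deposited table, and the starts shown for Pla2g4a, Ptgs1 and Ptgs2 coincide with it. Pla2g4a has a second RefSeq start, 38851 bases inside its gene model, whose window is not shown and held TATA box (TATAAA, 13.6% of windows), ETS and CCAAT box (37.4%) matches. Motifs were searched on both strands in windows of 300 bases that end 50 bases after the start. Ptgs1 held the ETS site AGGAAGT with its first base at -23, a motif found in 9.35% of the 32817 windows. Ptges held the GC box GGGCGG at -53 and -42, found in 35.6% of windows. Pla2g4a, Ptges and Ptgs2 each held a match to the loose C/EBP pattern TTNCNNAA, which is found in 40.7% of windows. In Pla2g4a this was a pair of overlapping matches at -112 and -111, in Ptges a match at -198, and in Ptgs2 matches at -69 and -25. Ptgs2 also held a GC box at -170. After its start, Ptgs2 carried the CRE core TGACGT (7.51% of windows), read on the opposite strand at 13, which overlaps the E-box CACGTG (7.15%) at 17. GC content of the windows was 50.7% for Ptgs1, 59.3% for Ptgs2, 60.0% for Ptges and 45.3% for Pla2g4a, against a median of 52.7% over all windows. No motif was shared by the windows shown of all 4 genes, and a match describes letters in a window, not a bound site.

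Library totals ran from 11172547 to 18545198 counts. Summed CPM (counts scaled to a common library size, with TMM factors) of 10 late neutrophil genes was 18398 to 21773 in normal, 4520 to 18734 in model, 6863 to 35146 in QJSB and 47143 to 56549 in leucogen. Model 1 and QJSB 1 had the lowest neutrophil sums of their groups and the highest sums of 8 stroma and endothelium genes (593 and 672, against 214 to 247 in the other 4 libraries). Between model and normal, marker genes were counted where they passed the adjusted cutoff defined below. By it, 6 of 6 monocyte genes were called higher, beside 16.1% of all genes. Called lower were 7 of 7 erythroid, 6 of 6 B cell, 6 of 7 eosinophil, 5 of 8 macrophage, 4 of 10 late neutrophil and 4 of 7 mast cell and basophil genes, beside 19.0% of all genes. On direction alone, only 1 of 10 late neutrophil, 1 of 8 macrophage and 1 of 7 mast cell and basophil genes had a positive log2 fold change. Stroma and endothelium genes were called higher for 2 of 8, and mast cell and basophil genes for 1 of 7. None of 10 megakaryocyte and platelet genes passed the cutoff there, with summed CPM of 222 to 523 in normal and 235 to 603 in model. Only the B cell list held a marker at 0, Vpreb3 in QJSB and leucogen.

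Only RNA was measured in these libraries, and the step that releases arachidonate was followed through the Pla2g4a transcript. Its level was 44.2, 41.4 and 37.0 CPM in normal 1 to 3, 68.5, 89.8 and 64.9 in model, 65.8, 56.5 and 60.6 in QJSB, and 96.8, 101 and 108 in leucogen. All 9 libraries given cyclophosphamide lay above the normal ones, and leucogen lay above every other library. QJSB and model overlapped.

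The cyclooxygenase transcripts were almost entirely Ptgs1. Ptgs1 was at 43.9, 39.3 and 50.5 CPM in normal, 75.5, 102 and 119 in model, 103, 158 and 160 in QJSB, and 151, 187 and 152 in leucogen. Group means climbed in this order, the normal libraries stood apart from all others, and neighbouring treated groups overlapped. Ptgs2 had 6, 9 and 4 counts in normal, 0, 0 and 4 in model, 1, 0 and 0 in QJSB, and 0, 2 and 0 in leucogen. It was too low for the test. On FPKM, which is per length, Ptgs2 was 0.685% to 1.95% of the cyclooxygenase total in normal libraries and at most 0.244% in any other. The ratio of summed Ptgs2 counts to normal, scaled for depth, was 0.185 in model (95% interval 0.0458 to 0.557), 0.0431 in QJSB (0.00104 to 0.271) and 0.123 in leucogen (0.0139 to 0.509). These intervals cover counting error only, since counts were summed over 3 mice and the spread between mice was left out. All 4 model counts came from model 3, and the 2 leucogen counts from leucogen 2. Reads copied by PCR are not independent molecules, so even the counting error may be understated. With no filter on low counts, edgeR called Ptgs2 lower in QJSB than in normal (log2 fold change -4.07, adjusted p = 0.0190) and in leucogen (-2.86, adjusted p = 0.0484), and did not call it in model (-2.33, adjusted p = 0.124). DESeq2 called it in QJSB (-4.43, adjusted p = 0.0200) but not in leucogen (-3.08, adjusted p = 0.112), and such fitted values rest on 1 and 2 counts.

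Among the prostaglandin E synthases, Ptges varied most between groups. It was at 2.39, 3.29 and 3.45 CPM in normal, 4.44, 6.45 and 5.37 in model, 2.95, 14.2 and 8.34 in QJSB, and 22.9, 16.6 and 20.1 in leucogen. The leucogen libraries were above all others, while QJSB spread from the normal range to nearly that of leucogen. QJSB 1, the library low in neutrophil genes, was the lowest of its group. Ptges2 was at 13.2, 12.6 and 12.3 CPM in normal, 14.5, 12.6 and 16.2 in model, 14.2, 16.4 and 16.1 in QJSB, and 19.1, 18.1 and 16.5 in leucogen. Ptges3 was at 145, 159 and 130 CPM in normal, 172, 164 and 186 in model, 181, 112 and 124 in QJSB, and 134, 134 and 150 in leucogen. Ptges2 stayed within a narrow band, and Ptges3 was highest in the model libraries and in QJSB 1.

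Per length, Ptges3 was the main transcript of the 3. It made up 93.0% to 94.2% of their summed FPKM in normal libraries, 93.2% to 93.6% in model, 85.2% to 94.5% in QJSB and 83.3% to 86.5% in leucogen. The share of Ptges was 1.03% to 1.65% in normal, 1.61% to 2.44% in model, 1.03% to 7.19% in QJSB and 7.09% to 9.52% in leucogen. The ratio of Ptges to Ptges2 in CPM ran from 0.181 to 0.281 in normal, 0.306 to 0.511 in model, 0.208 to 0.863 in QJSB and 0.920 to 1.22 in leucogen. The 3 leucogen libraries had the highest ratios of the 12.

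The remaining terminal synthases were at moderate or low levels. Tbxas1 was at 40.8, 33.3 and 47.2 CPM in normal, 42.2, 34.9 and 35.4 in model, 36.9, 46.5 and 41.2 in QJSB, and 55.5, 41.0 and 46.3 in leucogen. All 4 groups overlapped. Hpgds was at 10.4, 6.58 and 7.51 CPM in normal, 5.65, 5.17 and 5.77 in model, 4.67, 3.12 and 3.11 in QJSB, and 6.19, 6.74 and 7.87 in leucogen. The 3 QJSB libraries were the lowest of the 12.

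**Figure D1:**
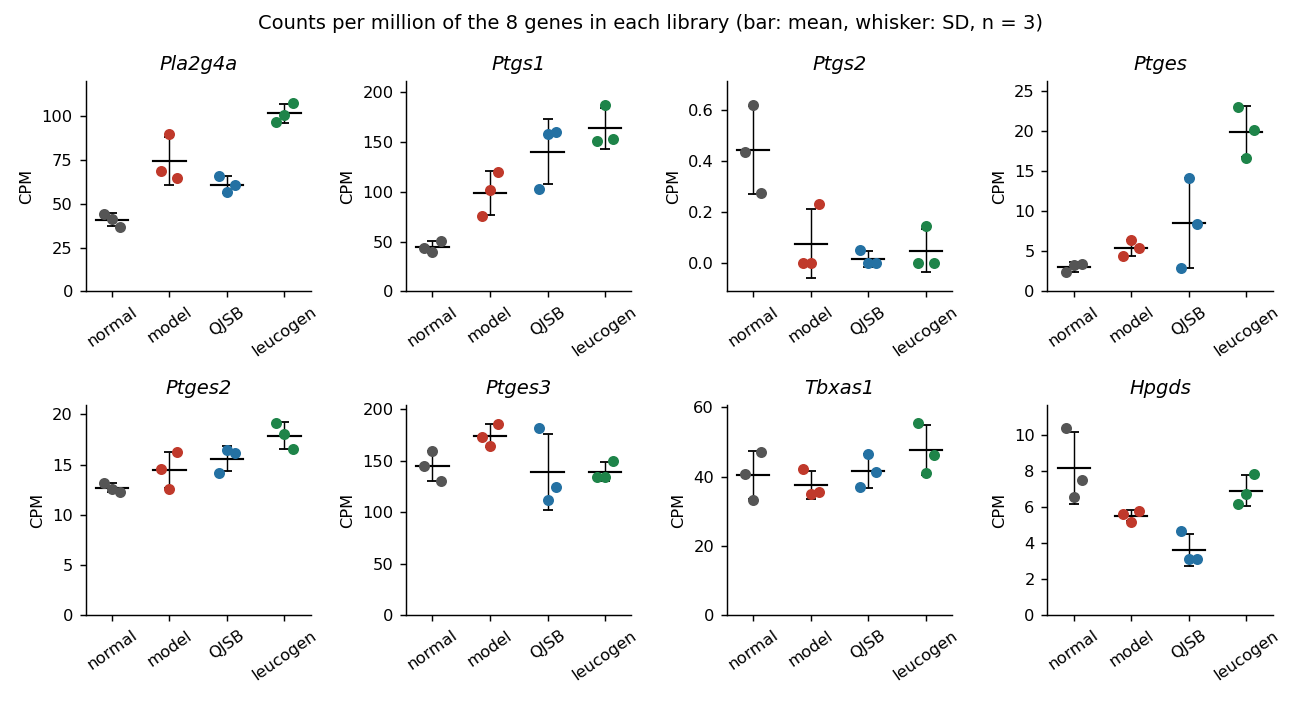
CPM (vertical axis, linear, a separate scale per gene) of the 8 genes in the 4 groups (horizontal axis). Each point is 1 library, the bar is the mean and the whisker the SD of 3. Leucogen was highest for Pla2g4a, Ptgs1 and Ptges, QJSB was lowest for Hpgds, and Tbxas1 overlapped in all groups.

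Within each gene the 4 groups were ordered by mean CPM and the 24 pairs of neighbours compared by an exact two-sided permutation test. With 3 libraries against 3 the smallest p it can give is 0.1, so no pair could pass 0.05, and the smallest Benjamini-Hochberg adjusted p was 0.24. The libraries did not overlap in 10 of the 24 pairs: model above normal for Ptgs1, Ptges and Ptges3, normal above model for Ptgs2, leucogen above QJSB for Ptges and Ptges2, QJSB above normal and leucogen above model for Pla2g4a, and model above QJSB and leucogen above model for Hpgds. For Ptgs2, normal 3 and model 3 each had 4 counts, so the gap between them (0.276 and 0.231 CPM) came from library scaling alone. Neighbours overlapped in the other 14 pairs, including every pair of Tbxas1.

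**Figure D2:**
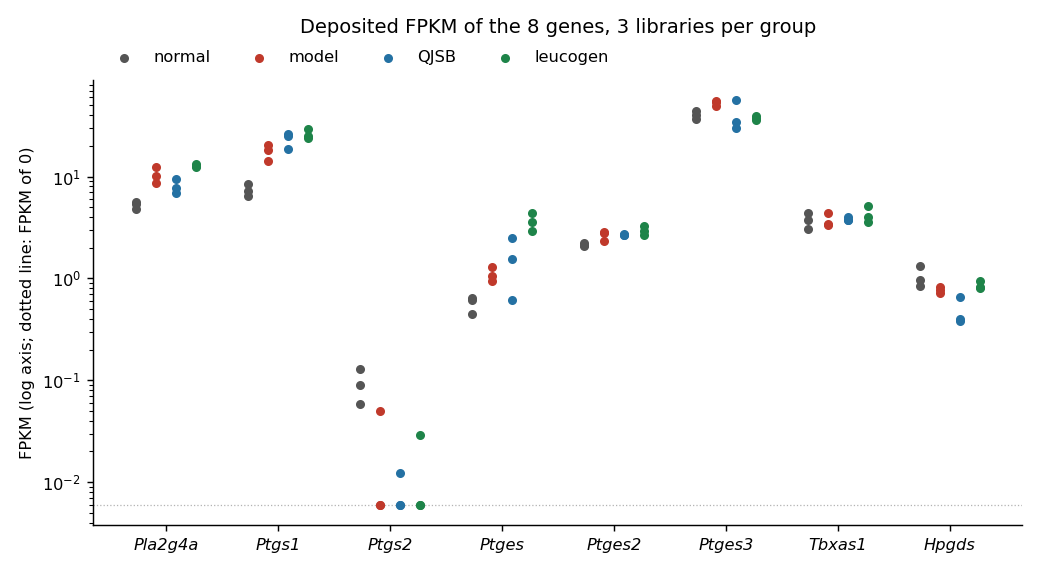
Deposited FPKM, a level per transcript length, of the 8 genes (vertical axis, log scale) with 1 point per library and the groups in colour. Ptges3 is the highest of the 8 in every group, Ptgs2 is the lowest, and points on the dotted line stand for an FPKM of 0.

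Cyclophosphamide alone was examined by comparing model with normal. Pla2g4a, Ptgs1 and Ptges rose, by 1.83-fold, 2.23-fold and 1.78-fold, and none of the 7 genes tested was called lower. Thus transcripts of the arachidonate-releasing enzyme, the main cyclooxygenase and the inducible prostaglandin E synthase were higher, and Tbxas1 and Hpgds were not called. A gene was called where its log2 fold change exceeded 0.585 in size, which is 1.5-fold, with a Benjamini-Hochberg adjusted p under 0.05 in edgeR's quasi-likelihood test. Of the 7 genes of the 8 that passed the filter on low counts, 3 were called higher, beside 16.1% of all 14752 genes tested that were called higher and 35.1% called in either direction. The edgeR log2 fold changes were 0.87 ± 0.16 (SE) for Pla2g4a (adjusted p = 0.00327), 1.15 ± 0.19 for Ptgs1 (adjusted p = 0.00167) and 0.83 ± 0.27 for Ptges (adjusted p = 0.0345). Hpgds was at -0.56 ± 0.23 (edgeR adjusted p = 0.0841), Ptges3 at 0.27 ± 0.12 (0.114), Ptges2 at 0.19 ± 0.17 (0.383) and Tbxas1 at -0.10 ± 0.16 (0.645). The median log2 fold change of the 7 was 0.27, against 0.02 over all genes tested. The libraries of the groups did not overlap for 5 of the 7, beside 55.5% of all genes. In whole marrow, fewer cells of a type and less RNA per cell cannot be told apart. The 6 monocyte genes, all called higher, summed to 1479 to 1598 CPM in normal and 3481 to 6612 in model, and their part in the result was not tested. The call of Ptges was lost without normal 1, 2 or 3 (edgeR adjusted p = 0.127, 0.0827 and 0.0622) and without model 2 or 3 (0.0765 and 0.0572). It was also lost with all 12 libraries in one fit (edgeR adjusted p = 0.148). In limma on log2(FPKM + 1) its log2 fold change was 0.42, below the fold cutoff. Scaling by total counts moved the median of all genes from 0.02 to 0.14, and Tbxas1 from -0.10 to 0.021.

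**Figure D3:**
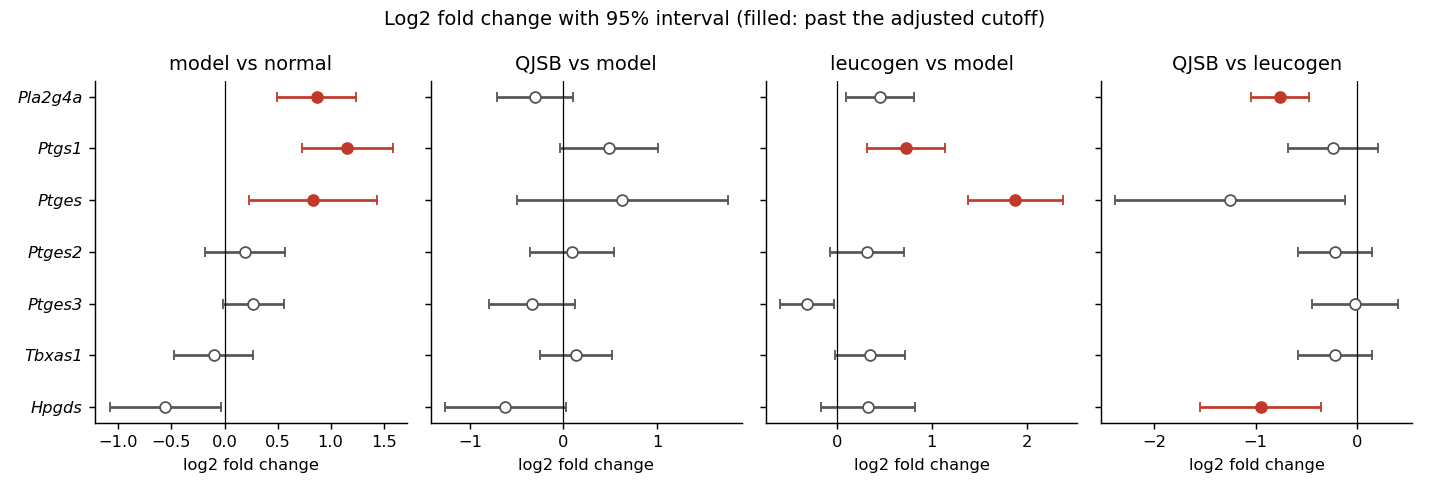
Log2 fold change (horizontal axis) of the 7 tested genes in 4 comparisons, with the 95% interval as a bar and filled points for genes past the adjusted cutoff. Pla2g4a, Ptgs1 and Ptges were called in model against normal, none in QJSB against model, Ptgs1 and Ptges in leucogen against model, and Pla2g4a and Hpgds in QJSB against leucogen.

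The effect of QJSB was examined by comparing QJSB with model. None of the 7 genes tested was called, and none reached an unadjusted p under 0.05 in the edgeR fit with the filter and no block, in DESeq2 or in limma. With the replicate number as a block, Ptgs1 (0.48, unadjusted p = 0.0123, adjusted p = 0.404) and Hpgds (-0.64, unadjusted p = 0.0474, adjusted p = 0.498) did so in edgeR without being called, as they did with all 12 libraries in one fit, and Ptgs1 did with no filter on low counts (unadjusted p = 0.0426). The largest differences in the edgeR fit were Ptges at 0.63 (95% interval -0.50 to 1.76, unadjusted p = 0.236) and Hpgds at -0.62 (-1.27 to 0.03, unadjusted p = 0.0590), on the log2 scale. Ptgs1 was at 0.49 (-0.04 to 1.01), Ptges3 at -0.34 (-0.80 to 0.12), Pla2g4a at -0.30 (-0.71 to 0.10), Tbxas1 at 0.13 (-0.26 to 0.52) and Ptges2 at 0.09 (-0.35 to 0.54). These intervals leave room for changes of 1.5-fold or more for Ptges, Ptgs1, Hpgds, Ptges3 and Pla2g4a. Adjusted p was 0.767 or more for all 7 in edgeR. Over all 14486 genes tested the share called was 0%, while 3.08% passed the same fold change with an unadjusted p under 0.05. Libraries were apart for 1 of the 7, Hpgds, beside 9.80% of all genes. QJSB 1 weighed on these values. Without it, 4 of the 7 genes had an unadjusted p under 0.05 in edgeR and none was called, with Ptges at 1.04 (edgeR unadjusted p = 0.00922, adjusted p = 0.200), Ptgs1 at 0.67 (0.0109 and 0.206), Ptges3 at -0.57 (0.00743 and 0.189) and Hpgds at -0.84 (0.0217 and 0.251). Without QJSB 2, Ptges was at 0.049 (edgeR unadjusted p = 0.917), and without model 3 only Ptgs1 was under 0.05 (0.65, unadjusted p = 0.0371). Without both model 1 and QJSB 1, a choice made after seeing the data, the same 4 genes had an unadjusted p under 0.05 and none was called, with Ptges at 0.90 (edgeR adjusted p = 0.362). The share of all genes with an unadjusted p under 0.05 in these fits with libraries left out is not given here. These counts therefore cannot be set against the whole table or read as particular to the 7 genes.

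Leucogen was compared with model in the same way. Ptges rose 3.69-fold and Ptgs1 1.66-fold, and none of the 7 genes tested was called lower. Ptges gave the largest change of the 7 in this comparison, from a mean of 5.42 ± 1.00 to 19.9 ± 3.18 CPM (SD, n = 3). The edgeR log2 fold change was 1.88 ± 0.22 (SE) for Ptges (adjusted p = 0.00185) and 0.73 ± 0.18 for Ptgs1 (adjusted p = 0.0194). These were 2 of the 7 genes tested, beside 11.6% of 14184 genes called higher and 23.1% called in either direction. Pla2g4a was at 0.46 ± 0.16 (edgeR adjusted p = 0.0604), Tbxas1 at 0.35 ± 0.16 (0.139), Hpgds at 0.33 ± 0.22 (0.290), Ptges2 at 0.31 ± 0.17 (0.204) and Ptges3 at -0.32 ± 0.13 (0.0927). The median of the 7 was 0.35, against -0.05 over all genes, and libraries were apart for 6 of the 7, beside 46.0% of all genes. Late neutrophil genes moved with these results: 7 of 10 were called higher in leucogen, and their summed CPM was 47143 to 56549 against 4520 to 18734 in model. Monocyte genes went the other way, with 3 of 6 called lower, beside 11.5% of all genes, and 2 of 6 with a positive log2 fold change. Their part in the result was not tested. Total counts moved the median of all genes from -0.05 to -0.22 and Ptgs1 from 0.73 to 0.57, below the fold cutoff. Ptgs1 was also not called without model 1 (log2 fold change 0.58, edgeR adjusted p = 0.0431) or without leucogen 1, 2 or 3 (adjusted p = 0.0513, 0.0666 and 0.0641), and Pla2g4a was called without model 2 (0.64, adjusted p = 0.00910).

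**Figure D4:**
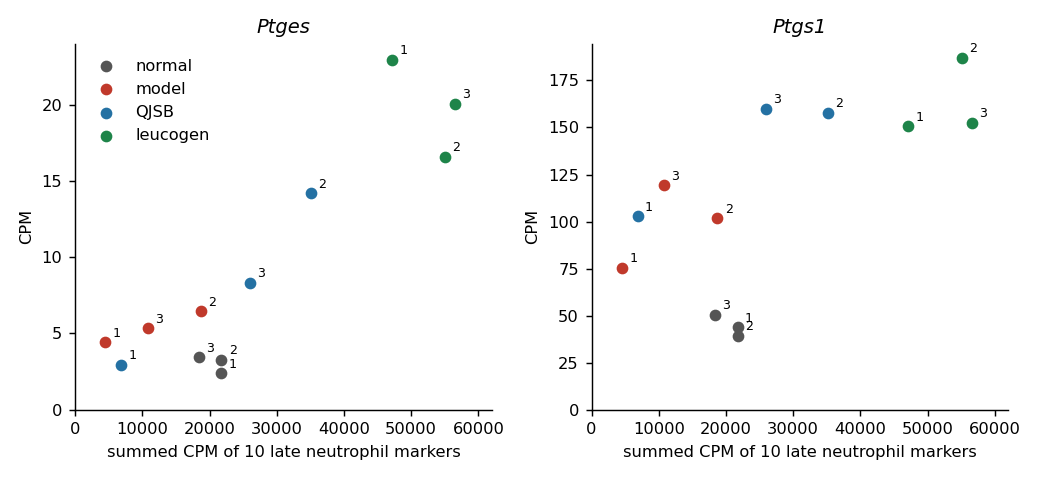
CPM of Ptges and of Ptgs1 (vertical axes) against the summed CPM of 10 late neutrophil genes (horizontal axis), with 1 point per library, numbered by replicate. Normal libraries have sums of 18398 to 21773 CPM and the lowest Ptgs1 of the 12. The 3 leucogen libraries lie at the right with the highest Ptges.

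Group medians of the late neutrophil sums and group means of Ptgs1 and Ptges did not follow 1 order. Late neutrophil sums were 21732, 21773 and 18398 CPM in normal 1 to 3. They were 4520, 18734 and 10836 CPM in model 1 to 3, so model 2 lay above normal 3. Ptges was at 2.39 to 3.45 CPM in normal and 4.44 to 6.45 in model, where model 2 was highest. Ptgs1 was at 39.3 to 50.5 CPM in normal and 75.5 to 119 in model. Among the 9 treated libraries, the 3 with the highest Ptges were the leucogen libraries, followed by QJSB 2 and 3, which had the next highest neutrophil sums, 35146 and 25980. Elsewhere the 2 orders differed. Leucogen 1 had the lowest neutrophil sum of its group (47143) and the highest Ptges (22.9 CPM). QJSB 1 had a higher neutrophil sum than model 1 (6863 against 4520) but lower Ptges (2.95 against 4.44 CPM). This is a description of libraries that share their groups, and no correlation was tested.

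QJSB and leucogen were compared directly, since each drug was given over the same cyclophosphamide. Pla2g4a and Hpgds were lower in QJSB, 0.591 and 0.518 times the leucogen level, and none of the 7 genes tested was called higher. The edgeR log2 fold change of QJSB minus leucogen was -0.76 ± 0.13 (SE) for Pla2g4a (adjusted p = 0.00497) and -0.95 ± 0.26 for Hpgds (adjusted p = 0.0276). They were 2 of the 7 genes tested, beside 11.7% of 14266 genes called lower and 24.6% called in either direction. Ptges was at -1.25 ± 0.49 (edgeR adjusted p = 0.0916), Ptgs1 at -0.24 ± 0.19 (0.378), Ptges2 at -0.22 ± 0.16 (0.328), Tbxas1 at -0.22 ± 0.16 (0.332) and Ptges3 at -0.02 ± 0.19 (0.937). Libraries were apart for 4 of the 7, beside 48.8% of all genes. The call of Pla2g4a held without each library in turn, with edgeR adjusted p up to 0.0358. That of Hpgds was lost without QJSB 2 or 3 (edgeR adjusted p = 0.0805 and 0.0760) and without leucogen 1, 2 or 3 (0.0624, 0.0665 and 0.122), under total counts (0.0642), and in limma on log2(FPKM + 0.1) and log2(FPKM + 1) (0.0888 and 0.0715). Ptges was called without QJSB 1 (log2 fold change -0.85, edgeR adjusted p = 0.0290) or QJSB 2 (-1.82, adjusted p = 0.0281), and in DESeq2 (-1.25, adjusted p = 0.0200). Of 7 mast cell and basophil genes, which mark cells known to use Hpgds, 1 was called lower and none higher in QJSB, and 4 had a positive log2 fold change. Their sums were 117 to 273 CPM against 136 to 139 in leucogen. Macrophage genes were called higher in QJSB for 3 of 8, with sums of 254 to 343 CPM against 225 to 259. Monocyte genes were called higher for 2 and lower for 1 of 6, with sums of 3750 to 4456 CPM against 2217 to 2794. Late neutrophil genes were called lower for 1 of 10, but only 1 of the 10 had a positive log2 fold change (median -0.92). Their sums, given above, did not overlap between these groups. Over all genes tested, 12.9% were called higher and 11.7% lower. The part of these cell types in the results was not tested.

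The drug groups were also set against normal mice, which received neither cyclophosphamide nor a drug, so that each of these comparisons carries both agents. In QJSB against normal, 4 of 7 genes were called, 3 higher (18.0% of 14817 genes) and 1 lower (19.9%), with 37.9% of genes called in either direction. Ptgs1 was 3.17-fold, Ptges 2.80-fold and Pla2g4a 1.51-fold the normal level, and Hpgds was 0.450 times it, the only call of a lower level against normal among the 7 genes tested. The edgeR log2 fold changes were 1.66 ± 0.19 (SE, adjusted p = 4.57e-04), 1.49 ± 0.52 (adjusted p = 0.0489), 0.59 ± 0.12 (adjusted p = 0.00683) and -1.15 ± 0.28 (adjusted p = 0.0120). Libraries were apart for 4 of the 7, beside 58.1% of all genes. Pla2g4a lay at the fold cutoff itself. Its log2 fold change was under the cutoff without normal 3 (0.52) or QJSB 1 (0.53), in DESeq2 (0.57), and in edgeR with DESeq2 size factors (0.57), with no filter (0.58), with at least 10 counts in every library (0.56) and with all 12 libraries in one fit (0.58). Ptges was not called without any normal library (edgeR adjusted p = 0.147, 0.116 and 0.104 without normal 1, 2 and 3) or without QJSB 2 or 3 (0.161 and 0.0969). Its call was also lost in edgeR with DESeq2 size factors (adjusted p = 0.0524), with no filter on low counts (0.0640) and with at least 10 counts in every library (0.0536), and in limma on log2(FPKM + 0.1) and log2(FPKM + 1) (0.0926 and 0.0943). Hpgds was not called without normal 1, the highest library (edgeR adjusted p = 0.0531). Eosinophil genes, 6 of 7 called lower, summed to 1429 to 1791 CPM in normal and 60.8 to 268 in QJSB, and macrophage genes, 6 of 8 lower, to 496 to 552 and 254 to 343. In leucogen these sums were 87.9 to 112 and 225 to 259 CPM, with Hpgds at -0.22 against normal (edgeR adjusted p = 0.419). Mast cell and basophil genes, 3 of 7 called lower and 1 higher in QJSB, summed to 196 to 261 CPM in normal and 117 to 273 in QJSB. Megakaryocyte and platelet genes, 1 of 10 called lower, summed to 222 to 523 and 320 to 367. The part of these cell types in the level of Hpgds was not tested.

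In leucogen against normal, 3 of 7 genes were called higher, beside 17.8% of 14637 genes called higher and 37.7% called in either direction. Ptges was 6.60-fold, Ptgs1 3.72-fold and Pla2g4a 2.52-fold the normal level, with edgeR log2 fold changes of 2.72 ± 0.20 (SE, adjusted p = 3.06e-06), 1.89 ± 0.12 (adjusted p = 1.22e-06) and 1.34 ± 0.10 (adjusted p = 2.94e-06). Ptges2, at 0.52 ± 0.13, had an edgeR adjusted p of 0.00723 but stayed below the fold cutoff. Hpgds was at -0.22 ± 0.21 (edgeR adjusted p = 0.419). Libraries were apart for 4 of the 7, beside 61.8% of all genes. These 3 calls held without each library in turn. The model, QJSB and leucogen comparisons share the 3 normal libraries, so their calls are not independent of each other.

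The wider pathway was read from a list of 32 genes for release of arachidonate, other terminal synthases, receptors, and breakdown and transport. In model against normal, 21 could be tested, 6 were called higher and 6 lower, beside 16.1% and 19.0% of all genes. Release genes other than Pla2g4a mostly fell: of 5 tested, Mgll, Pla2g3, Pla2g4c and Pla2g12a were called lower and only Pla2g6 higher. Mgll, monoacylglycerol lipase, which also yields arachidonate, was at 77.5, 54.0 and 87.4 CPM in normal and 5.31, 1.42 and 0.981 in model (log2 fold change -4.80 ± 0.61, edgeR adjusted p = 0.00120). The phospholipase Pla2g4c was at 23.2, 23.2 and 19.8 CPM in normal and 3.06, 6.31 and 4.27 in model (-2.28 ± 0.27, edgeR adjusted p = 3.14e-04). Thus 4 of the 5 release genes went against the direction of Pla2g4a.

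Receptors and transporters split as well. Of the 9 prostanoid receptors, 7 were tested, and Ptger2 (0.81 ± 0.22, edgeR adjusted p = 0.0167) and Ptger3 (0.98 ± 0.22, adjusted p = 0.00851), both receptors of prostaglandin E, were higher in model than in normal. Ptgdr, a prostaglandin D receptor, was lower, with 28, 17 and 35 counts in normal and 3, 3 and 0 in model (-3.82 ± 0.69, edgeR adjusted p = 0.00271). Ptger4, Ptgfr, Ptgir and Tbxa2r were not called (-0.34, -0.50, 0.52 and -0.05), and Ptger1 and Ptgdr2 were too low to test. Of 6 breakdown and transport genes, Abcc4, an exporter of prostaglandins, was higher (1.59 ± 0.15, edgeR adjusted p = 1.20e-04), as were the reductase Ptgr1 (1.38 ± 0.20, adjusted p = 8.88e-04) and the uptake carrier Slco2a1 (2.48 ± 0.45, adjusted p = 0.00295). Hpgd, which inactivates prostaglandins, was lower (-2.19 ± 0.35, edgeR adjusted p = 0.00147). None of the 3 tested terminal synthases outside the 8 genes (Cbr1, Akr1b3 and Fam213b) was called.

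In QJSB against model, none of 19 tested genes of the list was called, and Ptgir, the prostacyclin receptor, was the only 1 with an unadjusted p under 0.05 (0.73, unadjusted p = 0.0272, edgeR adjusted p = 0.767). In leucogen against model, 3 of 19 were called higher, Mgll (2.74 ± 0.59, edgeR adjusted p = 0.0163), Ptgdr (2.72 ± 0.72, adjusted p = 0.0236) and Ptgir (0.90 ± 0.18, adjusted p = 0.00827), and 2 lower, Pla2g12a (-0.76) and Akr1b3 (-0.65), beside 11.6% and 11.5% of all genes. Mgll stood at 14.1, 18.1 and 19.8 CPM in leucogen, above model and below normal. Ptgdr had 10, 14 and 8 counts there, against 6 counts or fewer in each model or QJSB library. Against leucogen, 4 of 20 tested genes were lower in QJSB, Ptgdr (-1.67), Mgll (-1.42), Pla2g4c (-1.35) and Hpgd (-0.99), and none was higher, beside 11.7% and 12.9% of all genes. Against normal, 6 genes of the list were higher and 6 lower in QJSB, and 5 were higher and 6 lower (19.8% of all genes) in leucogen, each of 21 tested.

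**Figure D5:**
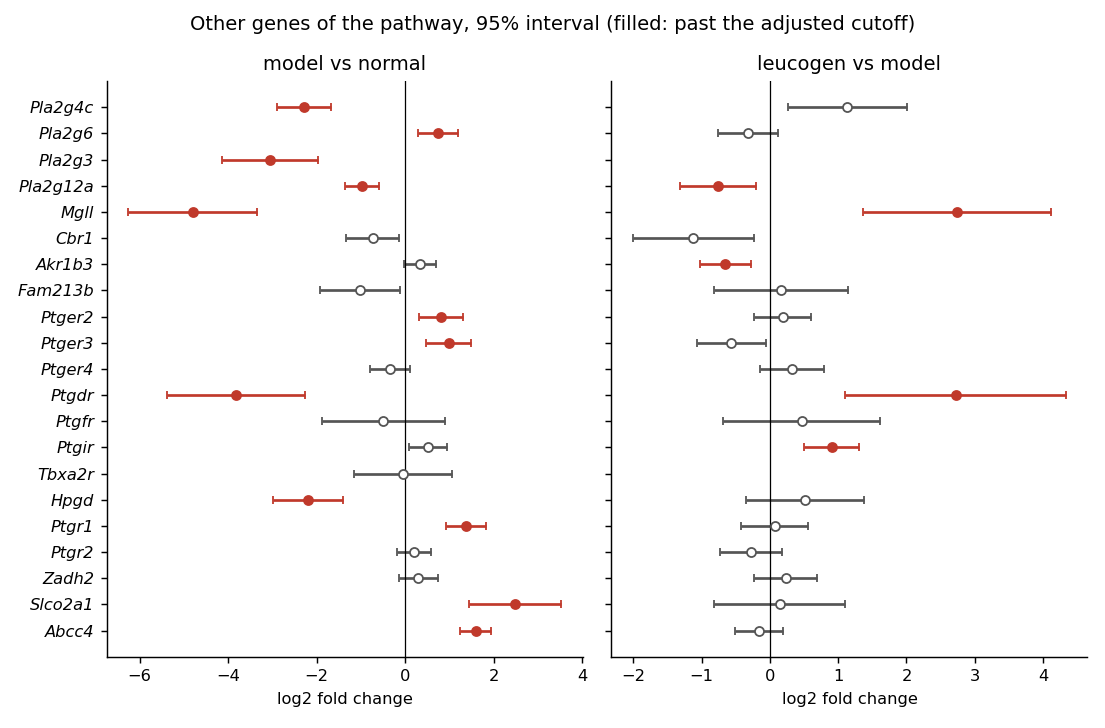
Log2 fold change (horizontal axes) with its 95% interval for the tested genes of the wider pathway list, in model against normal (left) and leucogen against model (right). Filled points passed the adjusted cutoff; 6 lie on each side of 0 at the left, and 3 above and 2 below 0 at the right.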

How the data were processed

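Total bone marrow RNA of 12 mice was sequenced. After depletion of ribosomal RNA, the authors prepared stranded libraries, cleaned the reads with Seqtk and aligned them with HISAT2 to mouse GRCm38.p4 (mm10); the counting program and annotation version are not given in the sources used here. The deposited table holds whole-number read counts per gene, not normalized, and the FPKM that the authors computed from mapped fragments, transcript length and total fragments. No column was left unused.

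Counts were tested with edgeR 4.0.16 (filterByExpr, TMM, glmQLFit with robust set, glmQLFTest; R 4.3.3), in pairwise fits of the 4 groups, 6 comparisons in all, with Benjamini-Hochberg adjustment over all genes tested. Standard errors were the log2 fold change divided by the root of F. CPM in the text used TMM factors of all 12 libraries. Ptgs2 did not pass the filter, and its ratios have exact 95% intervals on summed counts. Each library is 1 mouse, and totals of 11172547 to 18545198 counts limit low genes such as Ptgs2. The scripts were tested on simulated data. The members, the pathway list, the 9 marker lists and the named genes were chosen with earlier results of these data known. The named genes are the 8 genes, genes of the pathway list called in any comparison, all 9 receptors and, per gene, the 2 genes of most similar level over the 12 libraries, without predicted genes and antigen receptor segments.

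Alternatives were DESeq2 1.42.0, its size factors in edgeR, scaling by total counts, dropping the filter or asking for 10 counts in each library, a single fit of the 12 libraries, a replicate block, and leaving out each library. FPKM was tested by limma 3.58.1 (limma-trend) on log2(FPKM + 0.1) and log2(FPKM + 1), where the mean FPKM reached 0.1. Libraries with the same number deviated together from their group means, with correlations over 0.1 in every pair, for QJSB and model (0.453, 0.136 and 0.103) and for QJSB and leucogen (0.174, 0.157 and 0.110), but not in the other comparisons. The 3 values of a comparison are not independent, since deviations from a group mean cancel out over its 3 libraries. The pairing rests on these correlations alone. Promoters came from RefSeq (GRCm38.p6) and matched all 8 symbols. Protein sequences were not used here.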

Additional observations from a re-analysis of the deposited data

Results flagged for a closer look

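The effects of QJSB and leucogen over the same model mice differed by the direct test of QJSB against leucogen for 6 genes of the pathway, all lower in QJSB. They included 2 of the 7 synthesis genes tested, Hpgds (QJSB minus leucogen -0.95 on the log2 scale) and Pla2g4a (-0.76). They also included 4 of the 20 tested genes of the wider list. These were the receptor Ptgdr (-1.67), the lipase Mgll (-1.42), the phospholipase Pla2g4c (-1.35) and the prostaglandin-inactivating enzyme Hpgd (-0.99). All 6 passed the adjusted cutoff of edgeR's quasi-likelihood test. Of all 14266 genes tested, 24.6% passed it in either direction and 11.7% were called lower. The libraries of the groups did not overlap, beside 48.8% of all genes, except for Pla2g4c. There leucogen 3 (5.09 CPM) lay within the QJSB range of 2.60 to 5.36 CPM. The call of Hpgds was lost in several settings, given above. Ptgdr lay near the cutoff (edgeR adjusted p = 0.0486) and had 2 to 14 counts per library. The 4 genes of the wider list were not refitted under other settings.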

How the results depend on the processing

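Of 378 values recomputed under other settings than leaving out a library, 349 kept their direction and side of the cutoff, 20 were no longer called, 3 became called and 6 reversed; of 259 with a library left out, 224 kept both, 22 were no longer called, 3 became called and 10 reversed. The 6 reversals were Tbxas1 in model against normal (0.021 under total counts, 0.025 on log2(FPKM + 0.1) and 0.019 on log2(FPKM + 1)) and Ptges3 in QJSB against leucogen (0.087, 0.033 and 0.034 in the same order), neither of which was called in any setting. With a library left out, Tbxas1 ran from -0.23 to 0.030 in model against normal and from -0.074 to 0.17 in QJSB against normal, and Ptges3 from -0.28 to 0.10 in QJSB against normal, -0.11 to 0.037 in leucogen against normal and -0.26 to 0.13 in QJSB against leucogen. The number of the 8 genes called in leucogen against model fell from 2 to 1 under total counts and both FPKM fits, and was 1 to 3 with a library left out. In model against normal it fell from 3 to 2 with all 12 libraries in one fit and on log2(FPKM + 1), and was 2 to 3 with a library left out. In QJSB against normal it fell from 4 to 2 under DESeq2 size factors or with at least 10 counts in every library, to 1 on log2(FPKM + 1), and to 2 to 3 with a library left out. In QJSB against leucogen it fell from 2 to 1 under total counts and on log2(FPKM + 0.1), and was 1 to 3 with a library left out. The cause was not tested. In QJSB against model it was 0 in every setting, although 8 genes of the whole table were called by DESeq2, 18 with the replicate block, 3 without QJSB 1 and 23 without model 1 and QJSB 1 (0 in the reported fit). Genes called fell from 3276 to 1724 and 1239 without leucogen 1 and 3 in leucogen against model, and from 3511 to 2157 and 1544 in QJSB against leucogen. The replicate block changed no call of the 8 genes: with it, 3, 4 and 3 of them were called in model, QJSB and leucogen against normal, 0 and 2 in QJSB and leucogen against model, and 2 between the drugs. Depth limits Ptgs2, with 26 counts in 12 libraries, and 3 mice a group limit the rest.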

Other observations

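Genes whose log2 CPM followed each synthesis gene most closely over the 12 libraries were found among 12964 genes, as a description. For Ptgs1 these were Mogat2 (Pearson r 0.990) and Qsox1 (0.988), for Ptges Zfyve27 (0.975) and Ptpn18 (0.974), and for Pla2g4a Dcp2 (0.981) and Med21 (0.977). Ptges3 went with Taf1a (0.976) and Gpn1 (0.952), Ptges2 with Gna15 (0.922) and Stag3 (0.918), and Hpgds with Egr2 (0.911) and Fam208b (0.892). Tbxas1 had no close match, with Fam160a1 (0.796) and Hspa12a (0.788) nearest. The 12 libraries share 4 groups, so group differences alone can give such values.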
